A study of Mus musculus with 6 samples.

Results

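The troponin genes were followed across 6 arrays of C2C12, a line of mouse myoblasts that can form myotubes in culture. The set was fixed by gene name as Tnnt1, Tnnt2, Tnnt3, Tnni1, Tnni2, Tnni3, Tnnc1 and Tnnc2. All 8 were found through the transcript accession of a probe, 1 probe for each gene and 2 for Tnnt3, so that 8 of the 20659 genes named on the array are covered by 9 of its 39429 non-control probes. All 9 were well above background on all 6 arrays, so none was lost to the filter on dim probes, and none was marked as an outlier or saturated.

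Troponin is the calcium switch of the thin filament in striated muscle. Troponin C binds calcium, troponin I holds back the interaction of actin with myosin, and troponin T ties the complex to tropomyosin. Each subunit has isoforms from separate genes. Tnnt1 and Tnni1 encode the slow skeletal forms, Tnnt3, Tnni2 and Tnnc2 the fast skeletal forms, and Tnnt2 and Tnni3 the cardiac forms, while Tnnc1 encodes the form shared by slow skeletal and cardiac muscle. Immature skeletal muscle is also known to make cardiac troponin T.

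In 3 samples (si-NC) the cells carried the siRNA labelled si-NC, taken here as the control, and in 3 (si-lncMGPF) an siRNA against lncMGPF, a long noncoding RNA tied to myogenic differentiation. All cells were C2C12 that had differentiated for 2 days, and total RNA was read on 1-colour Agilent arrays. The labels name no separate cultures, and the spread that the p-values rest on may therefore be technical. By the scan identifiers, slide 1 held all 3 si-NC arrays together with replicate 1 of si-lncMGPF, and slide 2 held si-lncMGPF replicates 2 and 3, so slide and knockdown are partly confounded. The 75th percentile of the signal was 688.2 to 930.7 intensity units in si-NC and 492.1 to 923.04 in si-lncMGPF, and the number of arrays limits the precision. All 9 skeletal muscle markers on the list (Myod1, Myog, Des, Ckm, Acta1, Mymk, Mymx, Myh3 and Cdh15) were well above background on all 6 arrays. No probe carries the name lncMGPF, and how far the siRNA lowered it was not analysed here.

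The RefSeq promoter table for GRCm38.p6 held entries for 6 of the 8 genes, and Tnnt3 and Tnni2 were not matched. The 250 bases before the annotated start are shown for 4 genes. Tnnt1 and Tnni3 are shown because they are neighbours whose probes gave a bright and a dim signal. Tnnc1 and Tnnc2 are shown as the slow and fast forms of a single subunit. Capitals mark the E-box CANNTG, the letters that myogenic bHLH factors recognise. The stretches are chr7:4515976-4516225 (minus strand) for Tnnt1, chr7:4522529-4522778 (minus strand) for Tnni3, chr14:31208062-31208311 (plus strand) for Tnnc1 and chr2:164779735-164779984 (minus strand) for Tnnc2.
Tnnt1: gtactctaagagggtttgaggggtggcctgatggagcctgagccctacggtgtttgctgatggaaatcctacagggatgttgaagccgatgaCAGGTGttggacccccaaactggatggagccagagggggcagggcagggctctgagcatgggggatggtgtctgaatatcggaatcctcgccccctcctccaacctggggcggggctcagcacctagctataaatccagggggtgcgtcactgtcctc
Tnni3: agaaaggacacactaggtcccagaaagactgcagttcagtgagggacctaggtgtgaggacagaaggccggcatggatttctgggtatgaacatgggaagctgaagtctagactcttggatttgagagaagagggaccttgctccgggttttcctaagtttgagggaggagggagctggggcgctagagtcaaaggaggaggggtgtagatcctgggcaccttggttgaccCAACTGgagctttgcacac
Tnnc1: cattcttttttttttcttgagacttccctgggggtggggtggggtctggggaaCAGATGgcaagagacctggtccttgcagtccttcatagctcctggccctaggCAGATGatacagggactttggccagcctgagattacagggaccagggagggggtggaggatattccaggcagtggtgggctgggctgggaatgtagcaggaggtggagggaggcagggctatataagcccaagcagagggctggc
Tnnc2: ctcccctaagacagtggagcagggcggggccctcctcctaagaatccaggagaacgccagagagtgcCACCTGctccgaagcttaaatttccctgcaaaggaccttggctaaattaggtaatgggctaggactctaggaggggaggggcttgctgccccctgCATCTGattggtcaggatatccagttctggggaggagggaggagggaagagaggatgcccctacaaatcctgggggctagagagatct

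Each of the 8 promoter entries of the 6 genes held at least 1 E-box in this window, as did 66.2% of all 32851 promoters in the table. The E-box lay 158 bases before the start of Tnnt1 and 19 bases before that of Tnni3, with matches at 197 and 145 bases for Tnnc1 and at 183 and 88 bases for Tnnc2. The MCAT letters CATTCC, which TEAD factors recognise, were found on either strand in 2 entries, those of Tnnc1 (minus strand, 58 bases before the start) and Tnnt2 (plus strand, 27 bases), and in 12.6% of all promoters. TATAAA was found in the Tnnt1 entry alone, 30 bases before the start, and in 12.4% of all promoters. The CArG box and the MEF2 site, searched on both strands, were in none of the 8 entries and in 1.47% and 2.92% of all promoters. A match describes letters, and the arrays measured no binding.

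Of the 8 genes 7 gave bright signals, and Tnni3 gave a dim one that was still well above background on all 6 arrays. Values are given as normalised log2 signals, that is log2 of the processed intensity minus that array's 75th percentile, so 0 is the 75th percentile of the array. On the linear scale the mean processed intensity in si-NC was 36452 ± 3246 (SD, n = 3) for Tnni2 and 21147 ± 2554 for Tnnc2, both fast skeletal forms. It was 15150 ± 1501 for slow Tnnt1 and 9297 ± 1503 for cardiac Tnnt2. It was 5754 ± 768.03 for slow Tnni1, 5051 ± 675.2 for slow and cardiac Tnnc1, and 5238 ± 727.6 and 5082 ± 923.5 for the probes of fast Tnnt3. For cardiac Tnni3 it was 62.3 ± 6.21. Each probe binds with its own strength, so this order of signals is not an order of transcript amounts.

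In that order, Tnni2, Tnnc2, Tnnt1, Tnnt2 and Tnni1 held places 1 to 5 on each of the 6 arrays and Tnni3 held place 9. In si-NC the ranges of neighbours among these 5 did not overlap. Places 6 to 8 belonged to the Tnnt3 probes and Tnnc1, whose si-NC ranges overlapped (2.70 to 2.76, 2.63 to 2.72 and 2.64 to 2.71 on the log2 scale) and whose order changed between arrays. Tnnc1 held places 8, 7 and 7 in si-NC and place 6 on each si-lncMGPF array, and this shift was not tested. The 8 probes other than that of Tnni3 stood between the 87.3 and 98.4 percentile of all probes on every array. The Tnni3 probe stood between the 49.1 and 53.3 percentile, with intensities of 67.8, 55.6 and 63.7 units in si-NC and 63.3, 49.8 and 48.4 in si-lncMGPF. Negative control spots had a mean net signal, as the scanner software gives it, of 20.1 to 21.8 units on slide 1 and of 37.3 and 42.5 on slide 2, and the part of this in the Tnni3 values was not tested.

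**Figure D1:**
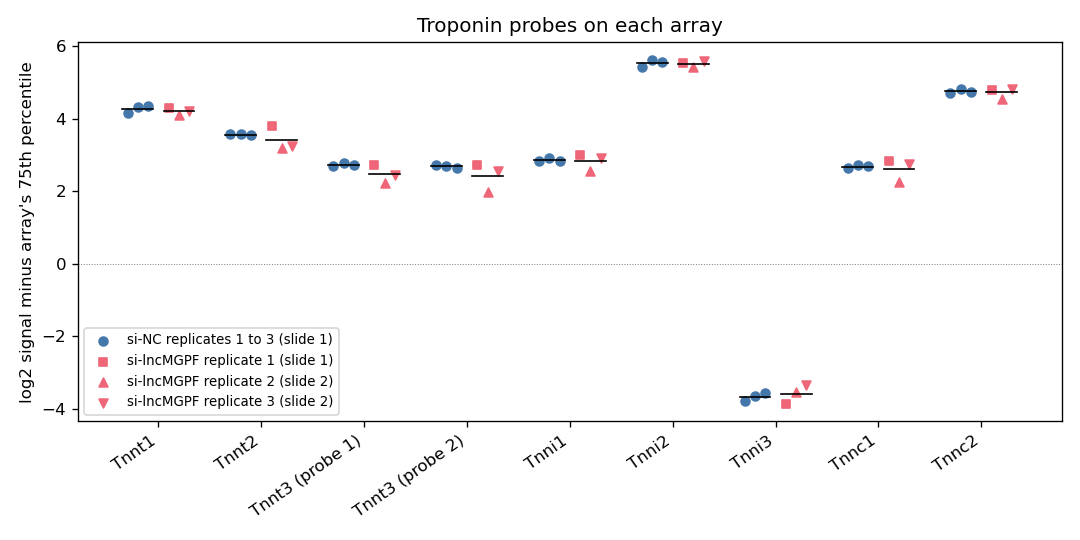
Normalised log2 signal (vertical axis, log2 intensity minus the array's 75th percentile) of the 9 troponin probes, 1 point per array, with a line at each group's mean. Probe 1 of Tnnt3 is A_51_P345699 and probe 2 is A_55_P2088375. Tnni2 stands highest on every array and Tnni3, between -3.87 and -3.35, lowest.

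The comparison of si-lncMGPF with si-NC asks whether the knockdown alters troponin expression during differentiation. None of the 9 troponin probes passed the threshold (limma, adjusted p below 0.05 over all 24625 tested probes), where 0.106% of tested probes did, and 0 of the 9 had an unadjusted p below 0.05, against 15.8% of tested probes. The groups overlapped for all 9, whereas 22.9% of tested probes showed no overlap. Fitted log2 changes lay between -0.26 and 0.07, and adjusted p between 0.39 and 0.934. The 95% intervals of the 9 fold changes reached down to between 0.606 and 0.843 and up to between 1.05 and 1.35. With 3 arrays per group, changes within each probe's own interval were thus not excluded. In bulk RNA, fewer differentiated cells and less RNA per cell cannot be told apart.

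Among the troponin T genes, which anchor the complex to tropomyosin, Tnnt1 (probe A_55_P2088385) had normalised log2 signals of 4.16, 4.31 and 4.33 in si-NC replicates 1 to 3 and 4.30, 4.09 and 4.21 in si-lncMGPF replicates 1 to 3. The groups overlapped, with si-lncMGPF replicate 2 just under the lowest si-NC value. The log2 change of Tnnt1 was -0.06 (SE 0.10, 95% interval -0.30 to 0.18, limma adjusted p = 0.77). Tnnt2 (A_51_P338262) had 3.56, 3.57 and 3.53 in si-NC and 3.80, 3.18 and 3.24 in si-lncMGPF. The si-NC arrays lay close together, while the si-lncMGPF array of slide 1 stood above all of them and those of slide 2 below. Its log2 change was -0.15 (SE 0.17, 95% interval -0.56 to 0.26, limma adjusted p = 0.68).

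Tnnt3, the fast troponin T, is spliced into many forms and was read by probes that carry different transcript accessions. On A_51_P345699 the log2 signals were 2.70, 2.76 and 2.72 in si-NC and 2.73, 2.22 and 2.46 in si-lncMGPF. On A_55_P2088375 they were 2.72, 2.69 and 2.63 in si-NC and 2.72, 1.98 and 2.55 in si-lncMGPF. On both probes si-lncMGPF replicate 1 lay within the si-NC range and the slide 2 arrays lay below it. The log2 changes were -0.26 (SE 0.14, 95% interval -0.59 to 0.07, limma adjusted p = 0.39) and -0.26 (SE 0.19, 95% interval -0.72 to 0.19, adjusted p = 0.512). The first probe minus the second was -0.02, 0.08 and 0.09 on the si-NC arrays and 0.01, 0.25 and -0.10 on the si-lncMGPF arrays. The probes thus lay closer to each other on slide 1 than on slide 2.

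Among the troponin I genes, whose products hold back contraction until calcium arrives, Tnni1 (A_52_P657360) had 2.83, 2.92 and 2.84 in si-NC and 3.005, 2.55 and 2.90 in si-lncMGPF. Replicate 1 of si-lncMGPF stood above the si-NC range, replicate 2 below it and replicate 3 within it. The log2 change of Tnni1 was -0.05 (SE 0.13, 95% interval -0.37 to 0.27, limma adjusted p = 0.877). Tnni2 (A_55_P2040893) had 5.43, 5.62 and 5.55 in si-NC and 5.53, 5.43 and 5.58 in si-lncMGPF. The groups overlapped almost wholly, and this fast isoform had the narrowest interval, with a log2 change of -0.02 (SE 0.10, 95% interval -0.25 to 0.21, limma adjusted p = 0.934). Tnni3 (A_51_P386983) had -3.78, -3.63 and -3.57 in si-NC and -3.87, -3.54 and -3.35 in si-lncMGPF. Here the order of slides was turned, with si-lncMGPF replicate 1 below the si-NC range and the slide 2 arrays above it, on the dimmest of the 9 probes. Its log2 change was 0.07 (SE 0.15, 95% interval -0.28 to 0.43, limma adjusted p = 0.818).

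Among the troponin C genes, which encode the calcium sensors, Tnnc1 (A_51_P461894) had 2.64, 2.71 and 2.68 in si-NC and 2.84, 2.25 and 2.75 in si-lncMGPF. Replicate 2 of si-lncMGPF lay well below the si-NC range, and the other si-lncMGPF arrays lay above it. The log2 change of Tnnc1 was -0.07 (SE 0.16, 95% interval -0.45 to 0.32, limma adjusted p = 0.859). Tnnc2 (A_51_P353232) had 4.69, 4.81 and 4.74 in si-NC and 4.80, 4.55 and 4.82 in si-lncMGPF. Replicate 2 was again the low array, and the groups overlapped, with a log2 change of -0.02 (SE 0.11, 95% interval -0.28 to 0.23, limma adjusted p = 0.926).

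**Figure D2:**
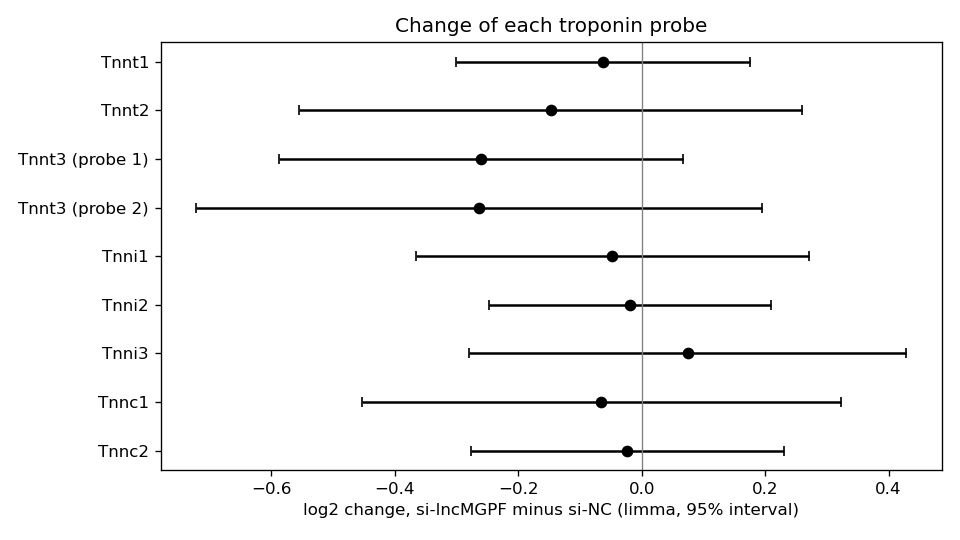
Log2 change, si-lncMGPF minus si-NC (horizontal axis), of each troponin probe with its 95% interval from limma (3 arrays per group). All 9 intervals include 0, and the estimates run from -0.26 for Tnnt3 to 0.07 for Tnni3.

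The arrays of si-lncMGPF differed more among themselves than those of si-NC. The SD was larger in si-lncMGPF for 8 of the 9 probes, all but Tnni2, with a median ratio of 4.96 between the SDs, where the median was 2.51 over all tested probes and 3.19 over the brightest 4925. With 1 probe per gene the median ratio was 3.78 for the 8 troponin genes and 3.13 for the 9 skeletal muscle markers. Replicate 2 lay below the si-NC range for 8 of 9 probes and above it for Tnni3. Replicate 1 lay above that range for 3 probes (Tnnt2, Tnni1 and Tnnc1), within it for 5 and below it for Tnni3. Replicate 3 lay below it for Tnnt2 and both Tnnt3 probes, above it for Tnnc1, Tnnc2 and Tnni3, and within it for the other 3.

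Both slide and single replicates moved with these values. Within slide 1, where 1 si-lncMGPF array stands against 3 si-NC arrays, the log2 differences were 0.04 for Tnnt1, 0.24 for Tnnt2, -0.003 and 0.04 for the Tnnt3 probes, 0.14 for Tnni1, -0.002 for Tnni2, -0.21 for Tnni3, 0.17 for Tnnc1 and 0.06 for Tnnc2. For slide 2, the differences from the si-NC mean were -0.11, -0.34, -0.39, -0.42, -0.14, -0.03, 0.21, -0.18 and -0.06 in that order of probes. The signs differed between slides for 7 of the 9 probes. For Tnni1, Tnni2, Tnnc1 and Tnnc2, replicate 3 of slide 2 lay above the si-NC mean (by 0.04, 0.05, 0.07 and 0.07). The negative slide 2 mean of these genes thus came from replicate 2 alone. The median over the 9 probes was 0.04 on slide 1 and -0.14 on slide 2, while all tested probes had -0.04 and 0.03 and the brightest 4925 of them -0.11 and 0.13. A fit with slide as a block gives the same estimates as slide 1, because slide 2 holds no si-NC array, and its lowest adjusted p for a troponin probe was 0.209 (limma, Tnnt2). When replicate 1 of si-lncMGPF was left out, so that group and slide cannot be told apart, 4135 of 24625 probes passed the threshold, among them Tnnt2 (log2 change -0.34, limma adjusted p = 0.0259) and Tnnt3 on A_51_P345699 (-0.39, adjusted p = 0.0441). Leaving out any other array gave 0 calls among the troponin probes.

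**Figure D3:**
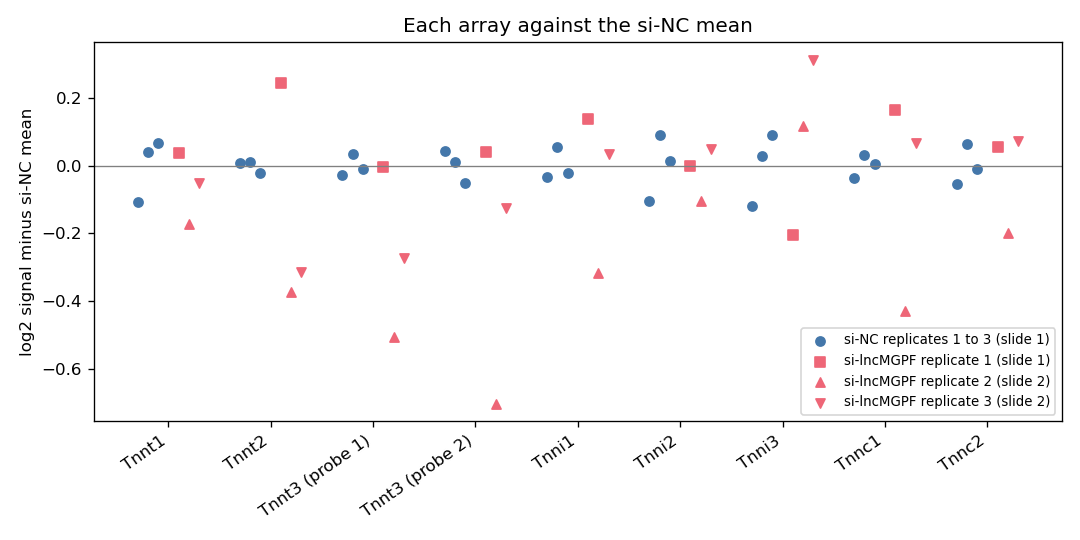
Normalised log2 signal of each array minus the si-NC mean of the same probe (vertical axis), for the 9 troponin probes. Circles are si-NC, the square is the si-lncMGPF array of slide 1 and triangles those of slide 2. Replicate 2 (upward triangle) lies below replicate 3 (downward triangle) for all 9 probes.

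Replicates 2 and 3 of si-lncMGPF share both slide and siRNA, and they also differed. Replicate 2 was lower than replicate 3 for 9 of 9 troponin probes, by 0.06 (Tnnt2) to 0.58 (Tnnt3, A_55_P2088375) on the log2 scale, against 48.7% of all tested probes and 33% of the brightest 4925. The median difference was -0.23 for the troponin probes and 0.01 for all tested probes. The skeletal muscle markers were lower in replicate 2 for 8 of 9 genes, with a median difference of -0.25. Their summed level, on a linear scale where the 75th percentile is 1, was 103.4 to 109.6 in si-NC and 109.1, 87.3 and 101.4 in si-lncMGPF replicates 1 to 3. The part of differentiation, or of any other difference between these samples, in the troponin values was not tested.

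The balance between slow and fast forms was followed as the log2 difference of the 2 probes within each array, which takes out the scaling of the array. Tnnt1 minus Tnnt3 (A_51_P345699) was 1.45, 1.54 and 1.61 in si-NC and 1.58, 1.87 and 1.76 in si-lncMGPF. The slide 2 arrays stood above si-NC and the slide 1 array within it, and the mean difference between groups was 0.20, with 0.04 within slide 1 and 0.28 on slide 2. With the other Tnnt3 probe it was 0.20, with -0.003 within slide 1, and si-lncMGPF replicate 3 then lay within the si-NC range. Tnni1 minus Tnni2 was -2.60, -2.70 and -2.71 in si-NC and -2.53, -2.88 and -2.68 in si-lncMGPF. Tnnc1 minus Tnnc2 was -2.05, -2.10 and -2.05 in si-NC and -1.96, -2.30 and -2.07 in si-lncMGPF. For both of these pairs si-lncMGPF spanned the whole si-NC range, and the mean differences between groups were -0.03 and -0.04. These balances were not tested, and an exact permutation test of 3 arrays against 3 cannot give a p below 0.1.

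**Figure D4:**
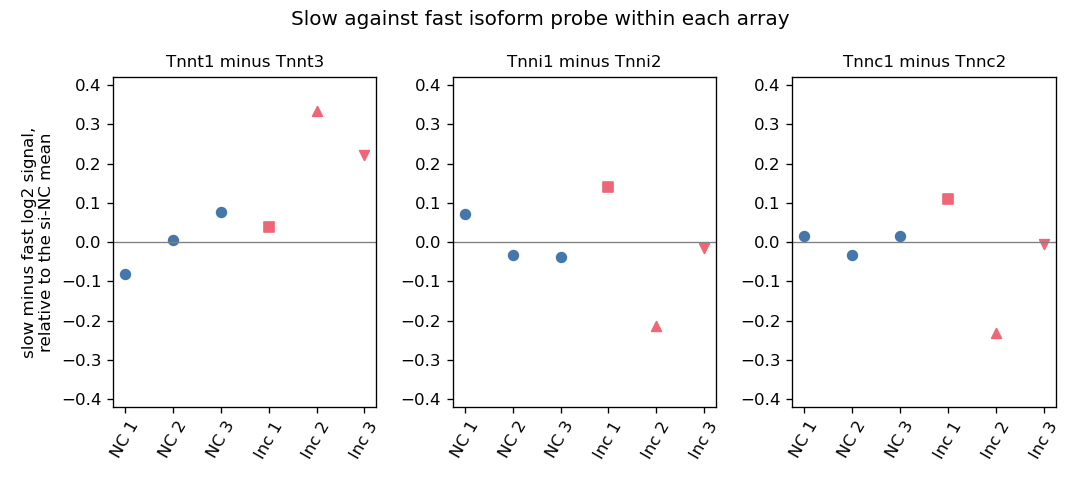
Slow minus fast log2 signal within each array, relative to the si-NC mean (vertical axis), for the troponin T, I and C pairs. NC 1 to 3 are si-NC and lnc 1 to 3 si-lncMGPF replicates. The troponin T pair is high on the slide 2 arrays (lnc 2 and lnc 3), and the other pairs lie on both sides of 0.

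Troponin T and I genes lie in pairs. In the RefSeq order of genes Tnni1 and Tnnt2 lie on chromosome 1 with 1 gene, Lad1, between them, Tnni2 and Tnnt3 on chromosome 7 with Lsp1 between them, and Tnni3 and Tnnt1 on chromosome 7 with 0 genes between them. Each pair joins different fibre forms except the fast pair of Tnni2 and Tnnt3. The log2 changes of neighbours were -0.05 for Tnni1 and -0.15 for Tnnt2, -0.02 for Tnni2 and -0.26 for Tnnt3, and 0.07 for Tnni3 and -0.06 for Tnnt1. In the first pair both genes were higher on si-lncMGPF replicate 1 than on any si-NC array and lower on replicate 2. In the last pair the signals of Tnnt1 and Tnni3 lay far apart on every array.

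Likeness was measured as the root mean square difference of centred log2 signals over the 6 arrays, among 12406 named genes above background on all of them. The 3 nearest genes, each with its difference, were Nfix (0.0191), Tnfsf12 (0.0228) and Nup188 (0.0262) for Tnnt1, the slow troponin T. For Tnnt2 they were Zfp825 (0.0332), Bpnt1 (0.0402) and Guca2a (0.053), and for Tnnt3 they were Lpar5 (0.03), Prdx2 (0.0309) and Nrxn3 (0.042). Tnni1 had Olfml3 (0.0307), Ankrd2 (0.0308) and Mamstr (0.0355), of which Ankrd2 is a titin-binding protein of muscle and Mamstr a coactivator of MEF2 factors. Tnni2 had Marf1 (0.0239), Cln6 (0.0303) and Cldn7 (0.031), and Tnni3 had Gng7 (0.0194), Vmn2r113 (0.0347) and Mboat2 (0.0352). Tnnc1 had Mmp2 (0.027), Unc5c (0.031) and Ikzf2 (0.0472), and Tnnc2 had G0s2 (0.0282), Mef2a (0.0285) and Nuak2 (0.0295). The median over all genes was 0.162 to 0.287, depending on the troponin. Tnni1 and Tnnc1, both of slow muscle, were close to each other (0.0505), with Tnni1 at rank 5 for Tnnc1 and Tnnc1 at rank 14 for Tnni1. The fast forms Tnni2 and Tnnc2 were also close (0.0523), at ranks 51 and 45. Pairs of a slow and a fast form were about as close, with 0.0557 for Tnnt1 and Tnni2, 0.0611 for Tnni1 and Tnnc2 and 0.0634 for Tnnt1 and Tnnc2, while the slow forms Tnnt1 and Tnnc1 lay farther apart (0.133). The measure is small between any genes that vary little. The root mean square of a gene's own centred signals was 0.0729 for Tnni2, 0.0869 for Tnnt1 and 0.0945 for Tnnc2. It was 0.143 to 0.21 for the other troponins. Fast Tnnt3 stood nearer to cardiac Tnnt2 (0.102) than to Tnnc2 (0.15) or Tnni2 (0.177). For Tnni3 the other troponins had ranks from 5232 to 11268, and Tnni2, the nearest (0.162), was just under its median over all genes (0.178). With 6 arrays on 2 slides these values describe the arrays and carry no test.

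Other contractile genes give the setting. Of 24 thin filament genes, such as actins, tropomyosins and capping proteins, 20 were tested and none passed the threshold (limma), where 0.147% of tested genes did. An unadjusted p below 0.05 was found for 5 thin filament genes (limma), against 15.8% of all tested probes. The median log2 change was 0.10 over the 20 tested thin filament genes and -0.05 over the 8 troponin genes. Neb, the giant protein that spans the thin filament, had a log2 change of -0.72 (SE 0.14, limma adjusted p = 0.173) on 1 probe and -0.29 on another. Lmod2, which helps to lengthen the filament, had -0.86 (SE 0.25, limma adjusted p = 0.23). Within slide 1 the Neb probes had -0.42 and 0.11 and Lmod2 had -0.29. For slide 2 the differences from the si-NC mean were -0.88, -0.49 and -1.15 in that order. Actc1, the cardiac actin of immature muscle, had 0.27 (SE 0.10, limma adjusted p = 0.268). Xirp1 had 0.44 (SE 0.14, limma adjusted p = 0.25) on a dim probe (mean log2 signal -3.38 in si-lncMGPF). Tpm4, a tropomyosin, gave the brightest signal of the list, with a log2 change of 0.09. The groups did not overlap for 6 of the 20 genes, against 22.3% of all tested genes.

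Of 10 other slow skeletal genes 1 passed, in the lower direction, where 0.105% of all tested genes did, and the median log2 change was -0.25. The groups did not overlap for 6 of the 10, against 22.3% of all tested genes. An unadjusted p below 0.05 was found for 5 of them (limma), against 15.8% of all tested probes. Myl2, the slow and cardiac regulatory myosin light chain, had log2 signals of -2.40, -2.17 and -2.31 in si-NC and -3.98, -3.73 and -3.71 in si-lncMGPF. The si-lncMGPF arrays all lay below the si-NC range. The difference from the si-NC mean was -1.69 within slide 1 and -1.42 for slide 2, which holds no si-NC array of its own. The fitted log2 change of Myl2 was -1.51 (SE 0.12, 95% interval -1.79 to -1.24, limma adjusted p = 0.0214). Its probe was well above background on all 6 arrays but dim in si-lncMGPF (mean log2 signal -3.80, against -3.58 for Tnni3). The part of the negative control signal in the Myl2 values was not tested. The Myl2 interval lies outside those of the slow troponins Tnnt1, Tnni1 and Tnnc1, though the difference between the genes was not tested. Myl2 did not pass with either normexp background correction, with array weights, with no filter on dim probes or with the replicate block, nor when any 1 of the si-NC arrays or si-lncMGPF replicates 2 and 3 was left out. Myh7, the slow myosin heavy chain, had -0.64 (SE 0.10, limma adjusted p = 0.125), Csrp3 had -0.39 and Mb, the oxygen carrier myoglobin, had -0.25. Within slide 1 these 3 genes had -0.61, -0.46 and -0.21, while 3 of the 10 slow genes lay above the si-NC mean there. Atp2a2, the slow calcium pump, had -0.48 on 1 probe and 0.17 on another. Myl6b was the brightest of the list (-0.22).

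Of 13 fast skeletal genes 11 were tested and 0 passed (limma, 3 with an unadjusted p below 0.05), with a median log2 change of -0.07. Myl1, the brightest, had 0.03 on that probe and 0.59 on a dimmer one. Myh4 (-0.60), Pvalb (-0.60), Mybpc2 (-0.56) and Myh1 (-0.35) did not overlap between groups and had adjusted p from 0.144 to 0.326. These are 4 of 11 genes, against 22.3% of all tested genes, and the share of all tested probes with an unadjusted p below 0.05 was 15.8%. The Mybpc2 and Myh4 probes were dim in si-lncMGPF (mean log2 signals -4.09 and -3.80). The part of the negative control signal in their values was not tested. Myh2 was well above background on 3 si-NC arrays and 1 si-lncMGPF array, and so was tested through si-NC. Of 7 genes of immature muscle 0 passed (limma), where 0.147% of all tested genes did. An unadjusted p below 0.05 was found for 1 (limma), against 15.8% of all tested probes. The groups did not overlap for 2 of the 7, against 22.3% of all tested genes. Myh8, the perinatal myosin, had -0.69, and Myh3, the embryonic myosin, had -0.15 and -0.25 on its probes. Nes, an intermediate filament of immature muscle, was the brightest (0.06).

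**Figure D5:**
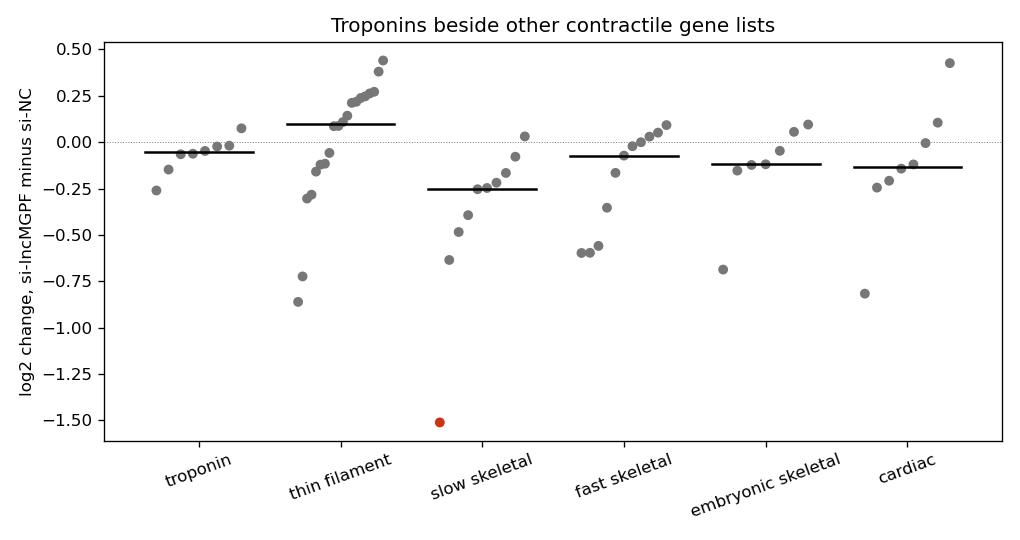
Log2 change, si-lncMGPF minus si-NC (vertical axis), of each tested gene (brightest probe) in the troponin and other contractile lists, with a line at the list's median. The troponins span -0.26 to 0.07, and Myl2 in the slow list, at -1.51, is the gene past the threshold (red).

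Of 15 other cardiac genes 7 were well above background on none of the 6 arrays (Myl7, Mybpc3, Tbx5, Hand2, Ryr2, Pln and Hcn4). The 8 tested included Gata4, Nkx2-5, Nppa, Nppb, Myh6 and Tnni3k, and 0 passed (limma), where 0.147% of all tested genes did. The groups did not overlap for 1 of the 8, against 22.3% of all tested genes. An unadjusted p below 0.05 was found for 2 (limma), against 15.8% of all tested probes. One of these 2 was Nppa, an atrial peptide hormone (log2 change -0.82, limma adjusted p = 0.296), which was well above background on 3 si-NC arrays and 1 si-lncMGPF array and so was tested through the group where it is high. The summed level of the 8 genes was 17.4 to 19.04 in si-NC and 17.03 to 18.8 in si-lncMGPF on the linear scale, and Ankrd1 made up most of it. Ankrd1, a stretch-responsive gene, was the brightest (log2 change -0.005). Sln, an inhibitor of the calcium pump, had 0.43 with no overlap between groups (limma adjusted p = 0.305). The Sln probe was dim (mean log2 signal -5.04 in si-NC and -4.62 in si-lncMGPF). Cardiac Tnnt2 and the dimmer Tnni3 were well above background on all 6 arrays. So were 7 of the 15 other cardiac genes (Myh6, Nppb, Nkx2-5, Gata4, Sln, Ankrd1 and Tnni3k).

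Of 18 regulators of fibre type 15 were tested and 0 passed (limma), where 0.147% of all tested genes did. An unadjusted p below 0.05 was found for 3 (limma), against 15.8% of all tested probes. The groups did not overlap for 5 of the 15, against 22.3% of all tested genes. Mef2c, a partner of myogenic factors, had a log2 change of 0.78 (limma adjusted p = 0.224) on a dim probe, with 0.27 within slide 1. Vgll2, a TEAD cofactor of skeletal muscle, had -0.35, and Ppargc1a, a driver of oxidative metabolism, had 0.22. Srf had -0.21 on 1 probe and 0.03 on another. Eya1, a transcriptional cofactor in muscle, was the brightest (0.11).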

How the data were processed

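Sample titles gave the groups. Per the file headers, the deposited scanner output gives linear processed intensity from Feature Extraction 11.0.1.1. The series table of the authors held the same intensity at 44397 of 44397 spots on each array, compared with no tolerance, with medians of 33.7 to 64.4 over all spots.

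Outlier spots were left out (117 to 134 per array), log2 processed signal was centred on each array's 75th percentile, and spots of a probe were averaged. This hides a shift of most transcripts in 1 direction. Probes well above background on every array of a group, with a value on all arrays, were tested (24625). Accessions without versions were matched to a RefSeq table of another build, which named 27234 probes. The file headers give mm9, so gene positions are not given; the promoter stretches carry the build of their own table.

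The comparison used limma 3.58.1 (lmFit and eBayes without covariates, under R 4.3.3), and p-values were adjusted by Benjamini-Hochberg across every tested probe. The test was run first on simulated data. The brightest probe stood for a gene. Named were every troponin probe and its 3 nearest genes, list members past the threshold, up to 4 more per list with the lowest p and no overlap, and the brightest. Neb's and other genes' further probes, the cardiac genes named without values, Nppa, Myh2 and the named markers of other cell types were added after their values were seen. Members, lists and rules were chosen with earlier results of these data known. Alternatives were other scalings, normexp with offsets of 50 and 16 on median spot signals, other filters, variance models, slide and replicate blocks, the series table, averaging the probes of a gene, and dropping each array in turn. Figures used matplotlib 3.10.9.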

Additional observations from a re-analysis of the deposited data

How the results depend on the processing

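No troponin probe and no thin filament gene passed the threshold under any of the settings tried, except without si-lncMGPF replicate 1, and with 3 arrays per group and slide partly confounded with knockdown this does not show that they are unchanged. Tnni3 has the dimmest probe, and the largest SE was that of Tnnt3 on A_55_P2088375 (0.19). Of all probes 26 passed (7 higher and 19 lower), against 15 with quantile normalization (7 higher and 8 lower), 8 and 12 with normexp at offsets of 50 and 16 (4 and 6 higher), 0 with no filter on dim probes (5266 at an unadjusted p below 0.05), 4 with array weights (whose estimate stopped before converging), 10 with slide as a block and 137 on the slide 1 arrays alone (101 higher and 36 lower), where 1 si-lncMGPF array stands against 3 si-NC arrays and is assumed to vary like them. Leaving out 1 array gave 0 to 4135 calls over all probes, 0 to 2 among troponin probes, 0 to 5 among thin filament genes and 0 to 7 among the slow, fast, embryonic and cardiac genes. The highest of each came without si-lncMGPF replicate 1, the count over all probes was 4 without si-lncMGPF replicate 2, and it was 0 without each of the other arrays (limma, 1871 to 2685 at an unadjusted p below 0.05). The 1 called gene of the slow, fast, embryonic and cardiac lists went to 0 with either normexp, no filter, array weights and the replicate block. Nothing in the labels says that replicate numbers pair the arrays. Same-numbered arrays deviated from their group means with correlations of 0.19, 0.32 and -0.06. With 3 arrays per group, and a slide split in si-lncMGPF alone, these values cannot decide whether the arrays are paired. With the replicate block 0 probes were called, with 4420 at an unadjusted p below 0.05.

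Directions of the small troponin changes turned with the handling of slide and with the array left out. The log2 change with slide as a block, which equals that on slide 1 alone, was 0.036 for Tnnt1, 0.24 for Tnnt2, 0.040 for Tnnt3 on A_55_P2088375, 0.14 for Tnni1, -0.21 for Tnni3, 0.17 for Tnnc1 and 0.055 for Tnnc2. With slide as a random block it was 0.0075 for Tnnt1, 0.13 for Tnnt2, 0.084 for Tnni1, -0.12 for Tnni3, 0.10 for Tnnc1 and 0.032 for Tnnc2. With array weights Tnni3 had -0.070. Leaving out each array in turn gave -0.14 to 0.087 for Tnni1, -0.071 to 0.026 for Tnni2, -0.045 to 0.21 for Tnni3, -0.18 to 0.12 for Tnnc1 and -0.072 to 0.064 for Tnnc2. The cause of these changes was not tested.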

Other observations

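Markers of other cell types were measured beside the troponins. Of 7 smooth muscle markers 4 were tested, while Myh11, Lmod1 and Myocd were well above background on no array. The summed level of the 4 on the linear scale was 180.8 to 226.8 in si-NC and 169.1 to 220.2 in si-lncMGPF. Acta2 was the brightest of them (mean log2 signal 7.03 in si-NC, log2 change 0.08), while Cnn1 (-0.41, limma adjusted p = 0.246) and Tagln (-0.34, adjusted p = 0.322) did not pass the threshold and had no overlap between groups. Of 9 endothelial and leukocyte markers 6 were tested, with 4.71 to 5.85 in si-NC and 3.47 to 4.56 in si-lncMGPF. Cdh5 and Tek were well above background on no array, and Cd68 was not matched to a probe. The brightest, Itgam, had a log2 change of -1.10 (limma adjusted p = 0.207), and Pecam1 (0.66) and Adgre1 (0.14) had fitted changes of the other sign. Within slide 1 the differences from the si-NC mean were -0.47 for Itgam, -0.04 for Pecam1 and 0.20 for Adgre1. For slide 2 they were -1.41, 1.02 and 0.12 in that order. The 2 tested adipocyte markers had 0.82 to 0.837 and 0.748 to 0.942, with Adipoq, Plin1, Lep and Cfd not tested. The 3 tested osteoblast markers had 0.374 to 0.392 and 0.234 to 0.272, with Sp7, Ibsp and Alpl not tested. Of the 3 tested, 1 passed in the lower direction, where 0.105% of all tested genes did. It was Bglap2, with a log2 change of -0.84 (SE 0.09, limma adjusted p = 0.0408). No probe passed with no filter on dim probes or with the replicate block, nor without any 1 si-NC array or si-lncMGPF replicate 3. Bglap2 thus did not pass in those settings.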
